A study of Mus musculus with 2 samples.

Results

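The SLC25 genes encode the carriers of the mitochondrial inner membrane and a few relatives in other membranes. All protein-coding genes of the GENCODE M21 annotation whose symbol is Slc25a followed by digits were taken as members, whatever their signal. This gave 47 genes on 19 chromosomes, of 21829 protein-coding genes in all, and the 21782 remaining genes served as the background. The related uncoupling proteins Ucp1, Ucp2 and Ucp3 and the carrier-like Mtch1 and Mtch2 carry other symbols and lie outside the rule.

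An SLC25 carrier is a bundle of membrane helices that opens to one side of the inner membrane at a time and so exchanges one small molecule for another. The ADP/ATP carriers bring ADP into the matrix and release ATP, the phosphate carrier brings in the phosphate for ATP synthesis, and other members move citric acid cycle intermediates, amino acids, acylcarnitines, iron, glutathione, nucleotides and cofactors. Skeletal muscle relies on this exchange during contraction, and its main ADP/ATP carrier is encoded by Slc25a4.

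The assay was DNase-seq: the enzyme DNase I cuts exposed chromatin, and sequencing locates the cuts. The tissue was gastrocnemius, a calf muscle, of male B6CASTF1/J mice at the age of 4 days, a hybrid of the C57BL/6J and CAST strains from The Jackson Laboratory. There was 1 group of 2 biological replicates with no treatment and no second genotype, so the values below are levels in this muscle and no contrast was tested. Each label speaks of 3 males, and both tissue samples carry the same donor entry, so the spread between the libraries may leave out part of the variation between animals. The tissue was analysed in bulk, and a promoter open in few of its cells cannot be told apart from one cut weakly in most of them.

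Replicate 1 held 94295 peaks and replicate 2 held 123291 peaks. The peaks carry the authors' cut density, which came in whole multiples of 0.00675 in replicate 1 and 0.00333 in replicate 2, a ratio of 2.03. The number of reads is not known from the files, and so no counting interval is given. Densities are therefore set beside each other within a library, and a peak's rank is its percentile by density among all peaks of its own library, from 0 to 100. Promoters of 8 of 8 skeletal muscle marker genes (Des and Myod1 among them) and of 4 of 4 fibroblast markers had a peak in both libraries, against 0 of 4 macrophage markers, 3 of 4 endothelial markers and 1 of 4 neuronal markers.

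Most SLC25 promoters were accessible. Promoters reached 500 bp upstream and downstream of each coding start of a gene, and 40 of the 47 members had a peak there in both libraries. The same held for 64.0% of the other protein-coding genes. Both libraries lacked a promoter peak at 6 members, against 31.8% of the other genes, and 1 member had a peak in replicate 1 only, against 4.18%. Counted singly, 41 members had a promoter peak in replicate 1, against 65.2% of the other genes, and 40 in replicate 2, against 67.0%. With the strongest promoter peak taken for each gene and genes without a peak set to 0, the median of the mean rank was 91.0 over the 47 members and 77.1 over the other genes. The gap was smaller among open genes. Among genes with a peak in both libraries the median rank was 92.4 in members and 91.2 in the other genes in replicate 1, and 93.7 in members and 93.2 in the other genes in replicate 2.

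The ranks were close in the 2 libraries. The strongest peaks of all 40 members overlapped between them, the median difference in rank was 1.59, and the largest was 16.0, at Slc25a21. Replicate 2, with the longer list, gave the higher rank in 34 of the 40. The other open genes also had a higher median rank in replicate 2, 93.2 against 91.2 in replicate 1. Counts of overlapping or higher peaks are not given for them. Across these 40 genes the ranks of the libraries had a Spearman correlation of 0.969, which describes genes and not animals. A mean rank of 90 or more was reached by 26 members, against 36.8% of the other genes, and a mean rank of 95 or more by 15 members, against 22.9%.

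**Figure D1:**
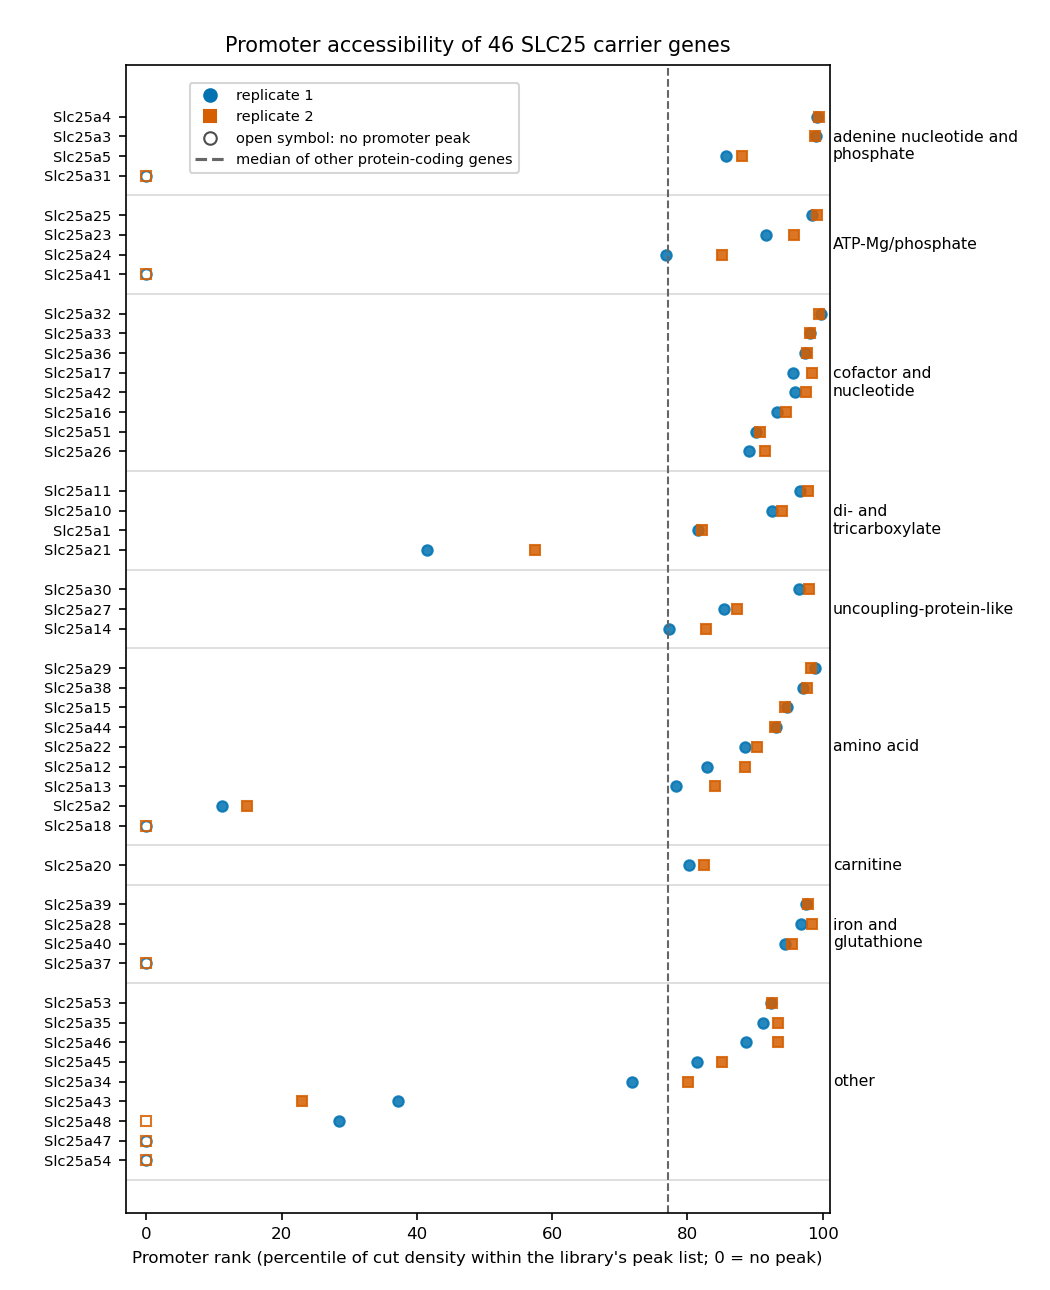
Rank of the strongest promoter peak of each of 46 SLC25 genes (percentile of cut density within the library's peak list, 0 for no peak), grouped by the substance carried, with circles for replicate 1 and squares for replicate 2. Both symbols of a gene mostly lie side by side, the 8 cofactor and nucleotide carriers drawn all lie above 89, and 6 genes lie at 0 in both libraries; the dashed line marks the median of the other protein-coding genes, 77.1.

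Of the ADP/ATP and phosphate carriers, 3 of 4 were open in both libraries. Slc25a4 encodes the ADP/ATP carrier of heart and skeletal muscle, and its promoter peak had a density of 11.9 in replicate 1 and 7.54 in replicate 2. These values ranked at 99.2 and 99.5, the second highest mean rank of the members. Slc25a3, the phosphate carrier, had densities of 11.5 in replicate 1 and 6.39 in replicate 2, with ranks of 99.1 and 98.8. Slc25a5, the ADP/ATP carrier of dividing cells and many tissues, lies on the X chromosome and had densities of 2.98 in replicate 1 and 1.91 in replicate 2, with ranks of 85.6 and 88.0. Within each library Slc25a4 and Slc25a3 were thus close to each other, and both lay above Slc25a5. Slc25a31, the ADP/ATP carrier known from the germ line, had no promoter peak in either library.

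The position of the Slc25a4 peak followed the RefSeq start more closely than the GENCODE start. The peak spanned chr8:46210961-46211160 on mm10 in both libraries, and its centre lay 224 bp downstream of the GENCODE start at 46211284, inside the annotated first exon. The RefSeq start lay at 46211062, and the peak's centre was 2 bp downstream of that. The sequence before the GENCODE start holds the letters TATAAA, which in many tissue-specific promoters sit at the place where the transcription machinery assembles. TATAAA on the gene's strand between 40 and 20 bases before the start, a search chosen after the data were seen, was found in 1 of 47 members, Slc25a4, and in 2.36% of the other genes. Among genes with a peak in both libraries it was found in 2.5% of members and 0.954% of the others. The stretch is given here on the gene's strand (chr8:46211285-46211434, minus strand), with TATAAA in capitals, and 0 of its 150 bases lay in footprints of both libraries. Footprints are short stretches inside accessible DNA that were protected from cutting. The Slc25a4 stretch lay outside the gene's promoter peak in both libraries, so this 0 cannot tell whether TATAAA was bound. The stretch before Slc25a3 (chr10:91124060-91124209, minus strand) lay mostly inside that gene's promoter peak and holds no TATAAA in that place. Its capitals mark an NRF1 match and a GC box that lay in footprints of both libraries, and 51 of its bases were footprinted in both.
Slc25a4: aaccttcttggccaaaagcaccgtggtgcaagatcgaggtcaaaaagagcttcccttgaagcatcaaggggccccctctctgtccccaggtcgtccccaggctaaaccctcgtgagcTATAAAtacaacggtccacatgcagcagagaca
Slc25a3: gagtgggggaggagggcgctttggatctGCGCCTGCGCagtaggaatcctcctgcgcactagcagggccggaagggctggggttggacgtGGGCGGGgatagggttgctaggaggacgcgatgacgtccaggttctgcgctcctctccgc

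The ATP-Mg/phosphate carriers change the pool of adenine nucleotides in the matrix, and Slc25a23, Slc25a24 and Slc25a25 are known to respond to calcium. Slc25a25 ranked at 98.5 in replicate 1 and 99.2 in replicate 2, the fifth highest mean rank of the members. Its peak at chr2:32451421-32451620 spanned the most upstream start. The peak's centre lay at -75 bp, inside an exon of the neighbouring gene Naif1. Slc25a25 also held the most promoter footprints of any member, 13 in replicate 1 and 15 in replicate 2, over 8 protein-coding starts. Slc25a23 had a mean rank of 93.7 and Slc25a24 of 81.0, while Slc25a41 had no promoter peak. The centre of the Slc25a23 peak lay at -517 bp from the start in replicate 1, in an intron of Crb3, and at -487 bp in replicate 2. With promoters of 200 bp on either side the mean rank of Slc25a23 was 84.5.

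The 9 cofactor and nucleotide carriers were all open in both libraries, and their mean ranks ran between 90.3 and 99.5 with a median of 97.0, the highest median of the role groups. Slc25a32, which brings folate and flavin into mitochondria, had the highest mean rank of all members, with ranks of 99.7 in replicate 1 and 99.4 in replicate 2. Its densities were 14.04 in replicate 1 and 7.40 in replicate 2, where Slc25a4 lay above it. Slc25a33 and Slc25a36, which carry pyrimidine nucleotides, had mean ranks of 98.1 and 97.5. Slc25a17, a carrier of coenzyme A and related cofactors in the peroxisome membrane, had a mean rank of 97.0 and Slc25a42, a mitochondrial coenzyme A carrier, of 96.7. Slc25a16 (93.8), the NAD carrier Slc25a51 (90.4) and the S-adenosylmethionine carrier Slc25a26 (90.3) were the lowest of the group.

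The upstream sequences of 4 of these genes are shown for the motif matches that touched a footprint of each library by at least 1 base, each on its gene's strand of mm10. In Slc25a32 (chr15:39112717-39112864, minus strand) the capitals mark 2 E-boxes and a GC box, and 70 of its 148 bases lay in footprints of both libraries. In Slc25a17 (chr15:81360813-81360962, minus strand) they mark an ETS match. In Slc25a26 (chr6:94500181-94500330, plus strand) they mark a CRE and then an ETS match of which a single base lay in footprints of both libraries, and in Slc25a36 (chr9:97111158-97111307, minus strand) a CRE, the sequence bound by factors of the CREB family. The footprint on the Slc25a36 CRE had the same ends, 97111189 and 97111210, in both libraries, and the CREs of these 2 genes are the only ones found in the members' windows.
Slc25a32: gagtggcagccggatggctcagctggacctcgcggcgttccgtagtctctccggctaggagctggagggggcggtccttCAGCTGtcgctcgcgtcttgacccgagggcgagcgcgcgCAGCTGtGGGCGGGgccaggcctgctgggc
Slc25a17: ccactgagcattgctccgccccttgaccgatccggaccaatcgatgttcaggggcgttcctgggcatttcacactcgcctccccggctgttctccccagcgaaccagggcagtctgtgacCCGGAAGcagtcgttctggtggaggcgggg
Slc25a26: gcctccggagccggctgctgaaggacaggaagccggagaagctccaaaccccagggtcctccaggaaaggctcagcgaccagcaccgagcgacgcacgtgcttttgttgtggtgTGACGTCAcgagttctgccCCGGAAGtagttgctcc
Slc25a36: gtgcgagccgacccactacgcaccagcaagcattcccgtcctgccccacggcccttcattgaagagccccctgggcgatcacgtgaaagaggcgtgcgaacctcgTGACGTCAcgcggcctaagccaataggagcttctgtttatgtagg

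The 4 carriers of di- and tricarboxylates were open in both libraries, at unequal strength. Slc25a11, the oxoglutarate/malate carrier of the malate-aspartate shuttle, had a mean rank of 97.2, and the dicarboxylate carrier Slc25a10 of 93.2. The citrate carrier Slc25a1 ranked at 81.6 in replicate 1 and 82.1 in replicate 2. Slc25a21, which carries oxodicarboxylates of lysine and tryptophan breakdown, was weaker, with densities of 0.729 in replicate 1 and 0.600 in replicate 2 and ranks of 41.5 and 57.5. The 3 uncoupling-protein-like members were open as well, with mean ranks of 97.2 for Slc25a30, 86.3 for Slc25a27 and 79.9 for Slc25a14.

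Among the amino acid carriers 8 of 9 were open in both libraries. Slc25a29, a carrier of basic amino acids, had a mean rank of 98.6 ± 0.380 (SD, n = 2), and the glycine carrier Slc25a38, needed for heme synthesis, of 97.4 ± 0.372. The centre of the Slc25a38 peak lay 456 bp downstream of the start in replicate 1, in an intron of the gene, and 446 bp in replicate 2. With promoters of 200 bp on either side the mean rank of Slc25a38 was 90.2. The ornithine carrier Slc25a15 had a mean rank of 94.6 and the branched-chain amino acid carrier Slc25a44 of 93.0. The aspartate/glutamate carriers of the malate-aspartate shuttle were lower than these. Slc25a12, the form known from muscle and brain, had densities of 2.53 in replicate 1 and 1.98 in replicate 2, with ranks of 82.9 and 88.5. Slc25a13, the form known from liver, had densities of 2.00 in replicate 1 and 1.49 in replicate 2, with ranks of 78.2 and 84.0. Slc25a12 lay above Slc25a13 in each library, by a gap in rank smaller than the gap between the libraries for either gene.

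The 2 glutamate carriers of this group were unlike. Slc25a22 had a mean rank of 89.4 and Slc25a18 no promoter peak. Slc25a2, a second ornithine carrier encoded without introns, had a weak peak in both libraries, at ranks of 11.1 and 14.9, the lowest of the 40 open members. The stretch before Slc25a44 (chr3:88425140-88425289, minus strand) is shown because a CCAAT box, read here on the opposite strand as ATTGG and set in capitals, lay in a footprint of both libraries, and 69 of its 150 bases did so in all.
Slc25a44: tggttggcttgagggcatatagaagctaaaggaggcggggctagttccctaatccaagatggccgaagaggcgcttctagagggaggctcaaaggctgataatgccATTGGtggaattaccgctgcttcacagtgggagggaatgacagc

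The carnitine/acylcarnitine carrier Slc25a20, which brings fatty acids in for oxidation, was open but not among the strongest promoters. Its peak at chr9:108662021-108662220 had densities of 2.20 in replicate 1 and 1.37 in replicate 2, with ranks of 80.2 and 82.5. Of the genes that act before and after it, Cpt2 had a mean rank of 97.3, Cpt1a of 95.4 and Cpt1b, the form known from muscle, of 50.1.

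The iron and glutathione carriers held both strong promoters and a closed one. Slc25a39 and Slc25a40, which bring glutathione into the matrix, had mean ranks of 97.7 and 94.9. Slc25a28, the mitoferrin of most tissues, had densities of 8.09 in replicate 1 and 5.86 in replicate 2, with ranks of 96.7 and 98.4. Slc25a37, the mitoferrin known from developing red cells, lacked a promoter peak in both libraries. The peak nearest to its starts lay 43382 bp away in replicate 1 and 40100 bp away in replicate 2. Of 4 erythroid marker promoters, Gata1, Klf1 and Alas2 were without a peak in both libraries and Epor had a mean rank of 86.0.

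The 9 members with other or less settled substrates had a median mean rank of 75.9. Slc25a53 (92.5), Slc25a35 (92.2), Slc25a46 (91.0), which acts in the shape and fusion of mitochondria from the outer membrane, and Slc25a45 (83.3) had a peak in both libraries. The centre of the Slc25a45 peak lay 339 bp downstream of the start in replicate 1 and 299 bp in replicate 2. With promoters of 200 bp on either side that gene kept a peak in 1 library, and its mean rank was 42.5. Slc25a34 had densities of 1.55 in replicate 1 and 1.22 in replicate 2, with ranks of 71.8 and 80.1. The X-linked Slc25a43 was weak, at 0.668 in replicate 1 and 0.310 in replicate 2, ranks of 37.2 and 23.0.

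Slc25a48, which is known to carry choline into mitochondria, was the member with a peak in a single library. The peak, 100 bp wide at chr13:56438441-56438540, had a density of 0.560 and a rank of 28.5 in replicate 1. In replicate 2 its promoter held 2 bases with a false discovery rate (FDR) below 0.05, against 257 bases in replicate 1. Upstream of this weak promoter lay 4 distal peaks found in both libraries. The nearest, at -4705 bp, had a mean rank of 78.1, and those at -9055, -15845 and -40545 bp had 81.5, 84.3 and 63.5. Each of them ranked above the gene's own promoter.

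The 6 members without a promoter peak were Slc25a18, Slc25a31, Slc25a37, Slc25a41, Slc25a47 and Slc25a54. Their promoters held 0 bases with an FDR below 0.05 in either library. Such a base lay in the promoter of 41 members in replicate 1 and of 41 in replicate 2, against 66.1% and 68.1% of the other genes. Slc25a47 is known from liver, and of 4 hepatocyte markers Alb, Ahsg and Cps1 were at 0 and Apob had a mean rank of 19.8. Slc25a31 is known from the germ line, and of 5 germ cell markers Acrv1, Prm1 and Tnp1 were at 0, Ddx4 had a peak in replicate 1 only and Dazl had a mean rank of 94.6.

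The closed members differed in how their promoters read as sequence. The CpG ratio, the number of CpG sites over that given by the C and G content, was taken from 250 bases before to 50 bases after the start. Its median was 0.653 in the 47 members and 0.601 in the other genes, and among open genes it was 0.671 in members and 0.772 in the others. Slc25a31 had a ratio of 0.779, and 95.1% of the 2568 other genes within 0.05 of that ratio had a promoter peak in both libraries. For Slc25a37, with 0.564, that share was 83.7%, and for Slc25a54, with 0.476, it was 70.0%. For Slc25a47 (0.328), Slc25a41 (0.248) and Slc25a18 (0.110) the shares were 35.5%, 24.0% and 7.55%, so that most genes with like promoters were without a shared peak too. Slc25a34 stood at the other end, with the lowest ratio of the members, 0.0383, and a peak in both libraries, as had 3.83% of the 2142 other genes near that ratio.

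**Figure D2:**
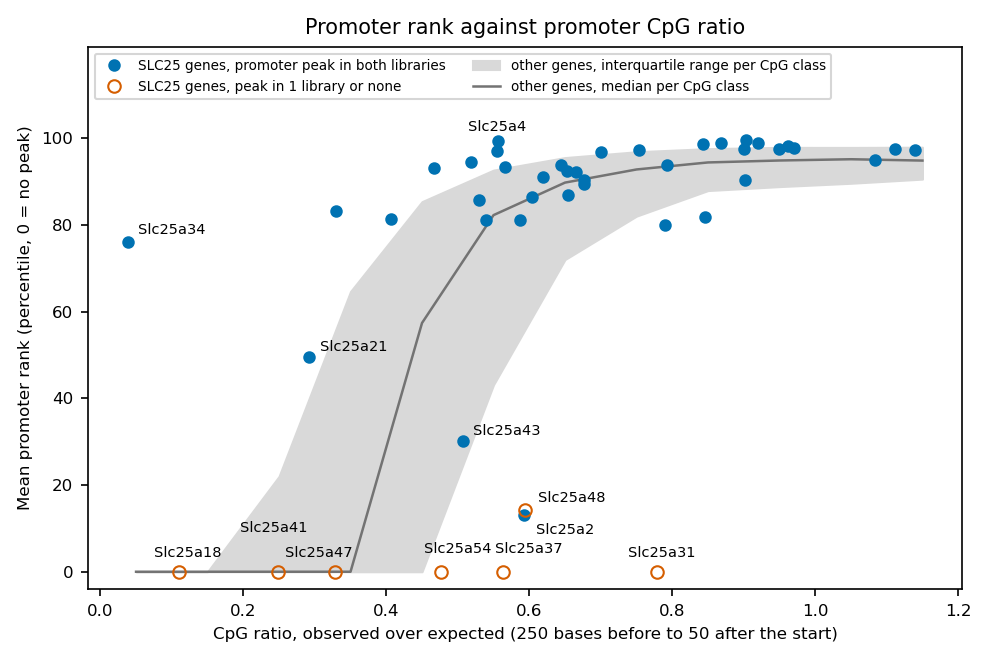
Mean promoter rank of 46 SLC25 genes (vertical axis, percentile, 0 for no peak) against the CpG ratio of the promoter (horizontal axis), with filled circles for genes with a peak in both libraries and open circles for the rest. The line and grey band give the median and interquartile range of the other protein-coding genes by CpG class; Slc25a31, at a ratio of 0.779, and Slc25a37, at 0.564, lie at 0 under the band, and Slc25a34, at 0.0383, lies at 75.9 above it.

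The upstream stretch of Slc25a31 (chr3:40708705-40708854, plus strand) is shown because it carries the letters seen at open members. Its capitals mark a GC box at -130, read on the opposite strand, and an NRF1 match at -29, the same letters that lay in a footprint before Slc25a3. Here they lay in no footprint and in no peak of either library.
Slc25a31: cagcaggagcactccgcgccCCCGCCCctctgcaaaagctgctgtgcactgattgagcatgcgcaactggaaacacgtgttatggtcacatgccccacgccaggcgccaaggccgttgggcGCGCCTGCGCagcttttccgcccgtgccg

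Closed and open members stood side by side in the genome. In 4 places 2 members were neighbours among SLC25 genes within 200 kb, and in 3 of the 4 pairs a gene with a peak in both libraries lay next to one with none. No such share is given for pairs of other genes, of which 64.0% had a peak in both libraries and 31.8% in neither. On chromosome 12 the starts of Slc25a29, with a mean rank of 98.6, and Slc25a47, at 0, were 15246 bp apart and pointed away from each other. On chromosome 17 Slc25a23 (93.7) and Slc25a41 (0) were 18209 bp apart with a start of Crb3 between them, and on chromosome 3 Slc25a24 (81.0) and Slc25a54 (0) were 42680 bp apart. On the X chromosome Slc25a5 (86.8) and Slc25a43 (30.1) were 51992 bp apart and both open. Slc25a47 also has noncoding transcript starts, which did not count here, and 2 of these had a peak in both libraries. The first of the 2, at 108836046, lay inside the promoter peak of Slc25a29.

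**Figure D3:**
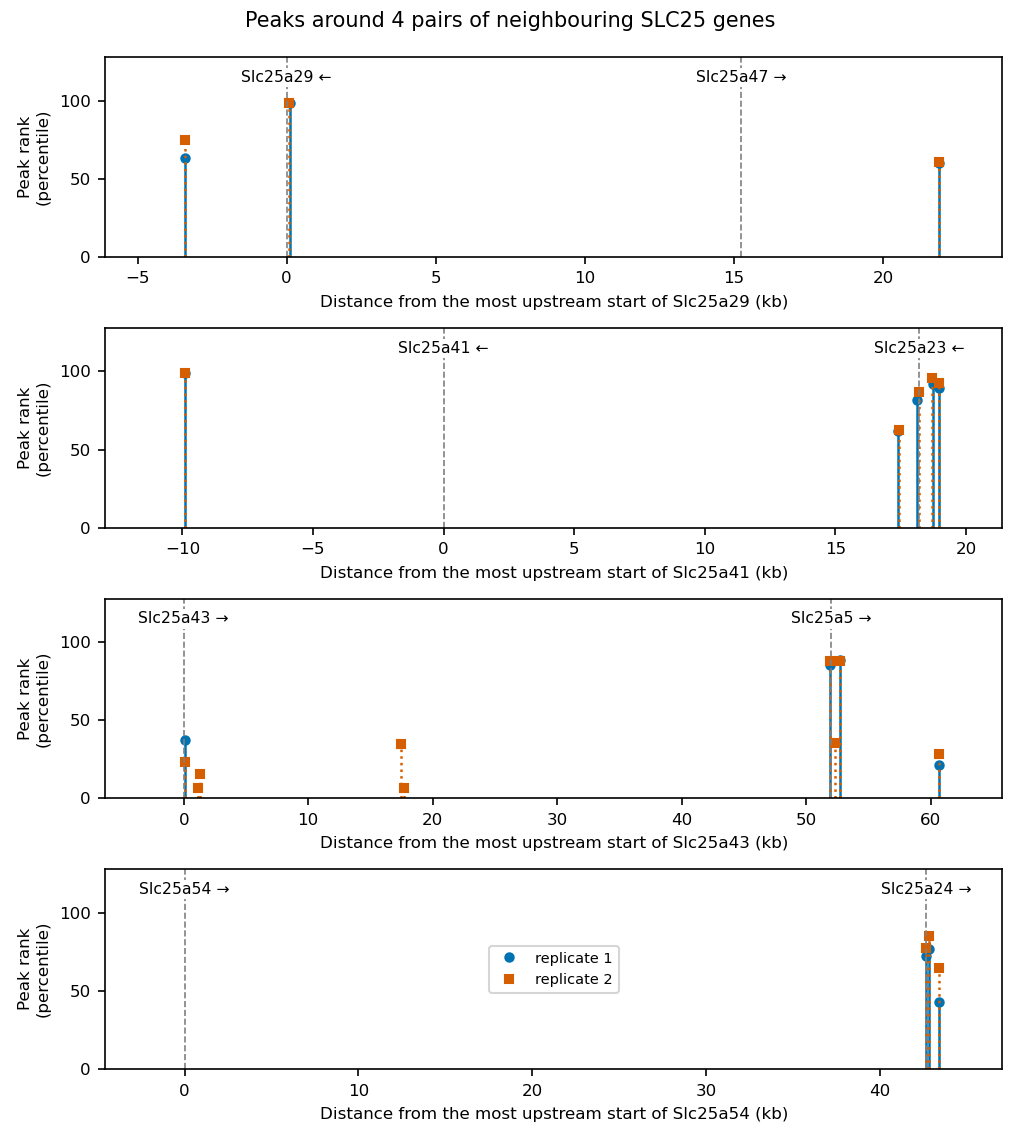
Peaks around 4 pairs of neighbouring SLC25 genes, as rank (percentile) against the distance from the most upstream start of the gene on the left (kb), with circles and solid stems for replicate 1 and squares and dotted stems for replicate 2. Dashed lines mark the starts and arrows the direction of transcription; no peak stands at the starts of Slc25a47, Slc25a41 and Slc25a54, while their partners Slc25a29, Slc25a23 and Slc25a24 have peaks with mean ranks of 98.6, 93.7 and 81.0.

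The X-linked members had lower densities than the autosomal ones. The median over Slc25a5, Slc25a14, Slc25a43 and Slc25a53 was 2.45 in replicate 1, against 5.46 over the 36 open autosomal members. In replicate 2 these medians were 1.65 on the X chromosome and 3.47 on the autosomes. The same order held in the other open genes, with medians of 1.97 on the X chromosome and 4.65 on the autosomes in replicate 1. Male cells carry a single X chromosome, and its part in these values was not tested.

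Most of the members' promoter peaks lay close to an annotated start. Of the 41 members with a peak in replicate 1, the centre of the strongest peak lay within 200 bp of the nearest start in 35, at or upstream of it in 27 and downstream in 14. By annotation 21 centres lay upstream in no gene, 16 in an exon of the member, 1 in an intron of the member, 2 in an exon of another gene and 1 in an intron of another gene. More than 1 protein-coding start was annotated for 27 members, against 62.4% of the other genes. Distances were taken to the nearest of these starts, so closeness is partly set by that choice. No such shares are given for the peaks of the other genes.

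In 5 of the 40 open members the strongest peak also touched the promoter of another protein-coding gene, against 16.4% of the other open genes, and so cannot be assigned to 1 of the 2 genes. In all 5 pairs the genes lay on opposite strands. The starts of Slc25a32 and Dcaf13 were 149 bp apart, those of Slc25a40 and Dbf4 134 bp, those of Slc25a11 and Rnf167 192 bp, those of Slc25a27 and Cyp39a1 211 bp, and those of Slc25a46 and B930094E09Rik 390 bp. The member with the highest mean rank, Slc25a32, is thus one whose peak lies at the starts of both genes.

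Footprints were found in both libraries in the promoters of 39 members, against 62.5% of the other genes. The open member without one in both was Slc25a2, with 0 in replicate 1 and 2 in replicate 2. Among genes with a peak in both libraries the median number of promoter footprints was 6 in members and 6 in the other genes in replicate 1, and 8 in members and 8 in the other genes in replicate 2. The members' promoters held 227 footprints in replicate 1 and 308 in replicate 2, and 171 of those in replicate 1 (75.3%) overlapped one in replicate 2. Of the 181 overlapping pairs, 8 had the same ends to the base. One of these lay on the CRE of Slc25a36. Overlap of footprints between the libraries is not given for other genes, so these shares are not particular to the members. The deposited footprints carry a constant, so their strength could not be compared.

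The letters of 9 motifs were searched on both strands, from 250 bases before to 50 bases after the start nearest the strongest peak. At some members, Slc25a4, Slc25a21 and Slc25a45 among them, this window did not reach the strongest peak, which was thus not searched. CCAAT was present in 22 members (46.8%), against 38.6% of the other genes, and among open genes in 47.5% of members and 37.5% of the others. The GC box, GGGCGGG, to which Sp1 and its relatives bind, was present in 23 members (48.9%), against 35.5% of the other genes. Among open genes these shares were 52.5% in members and 50.8% in the others. A GC box touched a footprint of each library in 15 members, 37.5% of the open ones, against 34.2% of the other open genes. For CCAAT it was 7 members, 17.5% of the open ones, against 11.97%.

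Of the motifs tied to mitochondrial genes, the ETS letters were the most frequent. The site of the nuclear respiratory factor NRF1, spelled GCGCA and GCGC with any base between, was present in 3 members (6.38%), against 6.79% of the other genes, and among open genes in 5.0% of members and 10.4% of the others. It was footprinted in both libraries at Slc25a3 and at Slc25a51, 5.0% of the open members, against 8.73% of the other open genes. CCGGAAG, bound by ETS factors such as GABP, was present in 9 members (19.1%), against 11.8% of the other genes, and among open genes in 8 of 40 members and 17.0% of the others. It touched a footprint of each library at Slc25a14, Slc25a17, Slc25a25 and Slc25a26, 4 of the 40 open members, against 7.32% of the other open genes. TCAAGGTCA, bound by the estrogen-related receptors, was in 0 members, against 0.399% of the other genes, and AAGATGGCG, bound by YY1, in 0 members, against 2.00%. These letters are one spelling of each site, and other spellings were not searched.

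Neither muscle motif was more frequent at the members' promoters than at those of the other genes. The MEF2 site was in 0 members, against 2.60% of the other genes, and the E-box CAGCTG, one of the forms bound by the myogenic factors, in 6 members (12.8%), against 15.8%. TGACGTCA, the CRE, was in 2 members (4.26%), against 2.58%. Both lay in footprints of both libraries, 5.0% of the open members, against 2.90% of the other open genes. GC boxes overlap one another at Slc25a51.

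Distal peaks were counted where their centre was more than 1 kb from every annotated start, within 50 kb of the gene's most upstream coding start and over a peak of the other library. At least 1 lay near 38 members, against 73.3% of the other genes, and the median was 2 in members and 2 in the other genes. No member had 10 or more, against 2.61% of the other genes. Slc25a30 had 9, Slc25a5 and Slc25a33 had 8 each, and Slc25a35 had 6, while Slc25a4, Slc25a39 and Slc25a45 had 5 each. Peaks are counted as replicate 1 has them, and for Slc25a30 2 of the 9 fall on 1 peak of replicate 2. In all there were 118 distinct peaks, of which 52 lay between genes, 41 in introns and 25 in exons, and 13 lay inside an SLC25 gene. The places of distal peaks near other genes are not given. Nearness in sequence does not assign a distal peak to a gene.

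The strongest distal peaks reached the ranks of promoters. The highest mean rank was 95.5 at chr19:5850261-5850420, 27 kb upstream of Slc25a45 in an exon of Frmd8, where 2 E-boxes lay in footprints of both libraries. A peak at -32633 bp from Slc25a33, between genes, had a mean rank of 95.5, and those at -3964 and -30514 bp from Slc25a39 reached 94.9 and 94.6. A mean rank of 90 or more was reached by 9 of the 118. In replicate 1 the median rank was 63.9 over the distal peaks near members and 51.0 over all 45755 shared distal peaks. The latter were not limited to peaks within 50 kb of a coding start. Neither the median nor the share at 90 or more is given for peaks near other genes, so no difference can be read from them.

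The 5 distal peaks of Slc25a4 were of middling strength. Those at -30836 and -5766 bp lay between genes and had mean ranks of 81.7 and 75.5. A peak at 2794 bp, in an exon of Slc25a4 itself, had a mean rank of 72.1, and one at 2056 bp, also in an exon, of 38.9. Near Slc25a5, 6 of the 8 distal peaks had mean ranks under 65 and the highest, at 12279 bp, had 87.4. The nearest peaks to Slc25a37 that were shared lay at 43382 and 46722 bp and had mean ranks of 79.9 and 68.6.

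**Figure D4:**
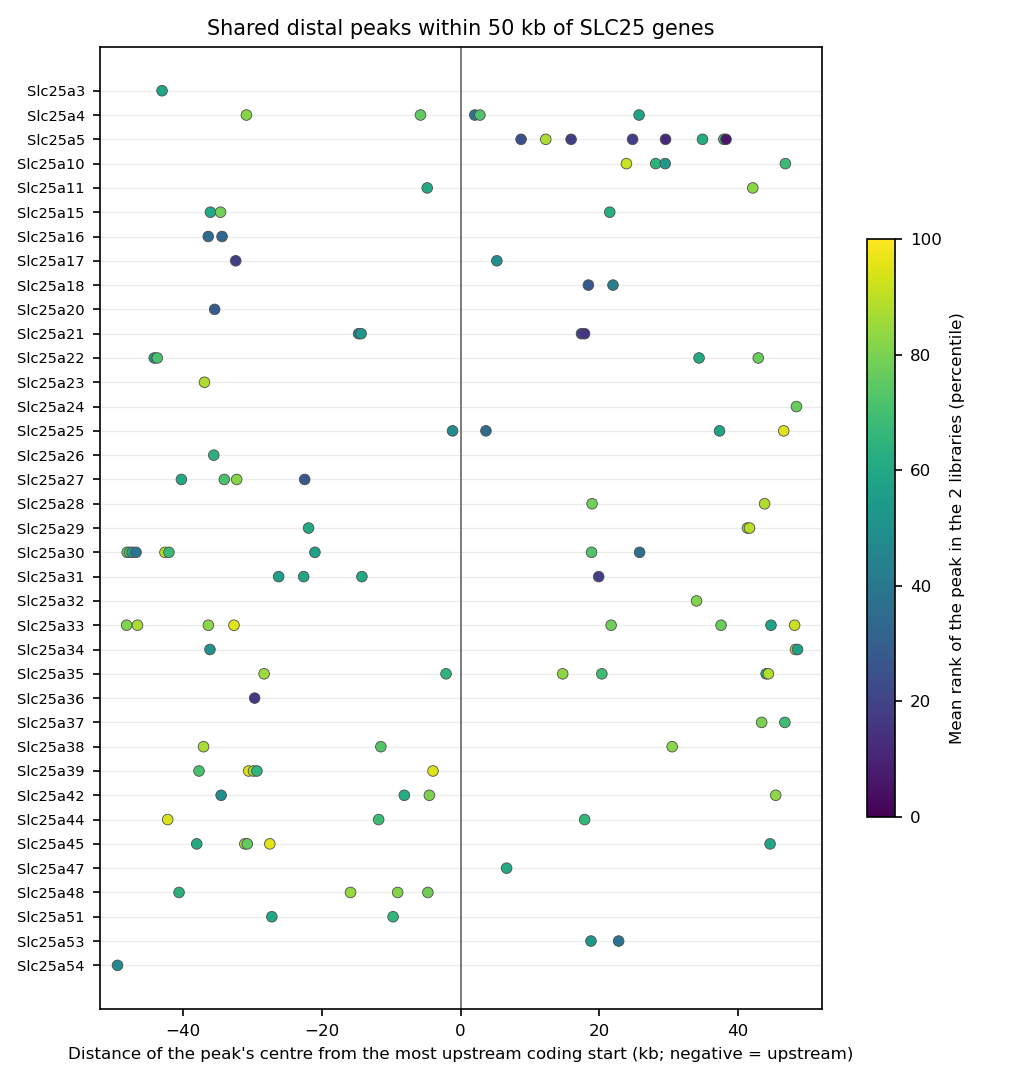
Distal peaks found in both libraries within 50 kb of 37 SLC25 genes that had any, by distance of the peak's centre from the gene's most upstream coding start (kb, negative upstream), with the colour giving the mean rank of the peak in the 2 libraries (percentile). Slc25a30 has the most, 9, mostly upstream, all 8 of Slc25a5 lie downstream, and the brightest points, at 95.5, are those upstream of Slc25a45 and Slc25a33.

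E-boxes were as common in the distal peaks near members as elsewhere. CAGCTG was in 30 of the 118 (25.4%), against 27.4% of all shared distal peaks, and CCAAT in 18.6%, against 18.3%. No distal peak near a member held the NRF1 letters, the CRE or the MEF2 site. These were rare in all shared distal peaks too, at 0.41%, 0.38% and 0.98%.

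The 5 relatives outside the rule had mean ranks between 18.9 and 99.7, against 0 to 99.5 in the members. Mtch1 and Mtch2, which lie in the outer membrane, had mean ranks of 99.7 and 99.3. Ucp2 had 89.6, Ucp1, the uncoupling protein of brown fat, had 18.9, and Ucp3, known from muscle, had a peak in replicate 2 only, with a rank of 55.2. Of the brown or white fat markers, Adipoq and Cidec were at 0 and Plin1 and Cidea had mean ranks of 76.6 and 78.9. A list of 29 other mitochondrial transport genes was open in both libraries throughout, with a median mean rank of 96.2, between 50.1 for Cpt1b and 99.8 for the pyruvate carrier gene Mpc2.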

How the data were processed

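DNase-seq peaks, footprints and FDR stretches came from the deposited lists of each library, on mm10 per the labels. The authors' peak lists give a cut density (signal) per peak. The deposited FDR lists give stretches with a q-value below 0.05, and the footprints deposited by the authors carry the constant score 0.01. The aligner and the callers were not given in the sources used here. Of the 2 peak lists per library the longer one was used.

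Peaks were matched to GENCODE M21 starts and sequence was read from GRCm38.p6, the C57BL/6J reference, so CAST variants were not seen. RefSeq starts are those of the same assembly. Overlaps needed 1 bp and were computed with Python 3.11.15, numpy 2.4.6 and pysam 0.24.0 (scipy 1.17.1, matplotlib 3.10.9), tested on simulated data. There was no test, as there was 1 group. Named in full were the ADP/ATP, phosphate, aspartate/glutamate and carnitine carriers, the mitoferrins, the 5 highest promoters, closed genes, genes open in 1 library, shared promoters and the 5 genes with most distal peaks. The members, lists and motifs were chosen with earlier results of these data known. All counts cover the 47 members, but the values of 1 member are not reported here and it is not drawn. Protein sequences were not analysed here.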

Additional observations from a re-analysis of the deposited data

How the results depend on the processing

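The number of members with a promoter peak in both libraries lay between 37 and 41, and with one in neither between 6 and 9, under promoter half-widths of 200 and 1000 bp, the most upstream start alone, the shorter peak lists, the strongest 50% of peaks, equal numbers of peaks and either library alone. At 200 bp Slc25a21 lost its peak in both libraries and Slc25a45 in 1. With the strongest 50% of peaks Slc25a21 lost it in 1 library and Slc25a2, Slc25a43 and Slc25a48 had none. Slc25a2 and Slc25a48 had none in the shorter lists, and with equal numbers Slc25a2 and Slc25a43 kept it in 1 library. The members' median rank of 91.0 was 84.6 with the shorter lists and 82.0 with the strongest 50% of peaks, where ranks are taken in fewer peaks, and ran from 90.2 to 92.5 with 1 library left out. Without the 5 members whose peak touches another gene's promoter, an alternative added after the data were seen, it was 90.4 and 35 members were open. The median of 2 shared distal peaks was 0 within 20 kb, 5 within 100 kb and 1 with the shorter lists, and ran from 2 to 4 with 1 library left out. The share of all protein-coding genes with a promoter peak in both libraries, 64.1%, was 61.7% at 200 bp, 65.5% at 1000 bp, 59.9% with the most upstream start, 59.4% with the shorter lists and 57.8% with the strongest 50% of peaks, and ran from 65.3% to 67.0% with 1 library left out. No paired analysis was possible because there was 1 group. The number of reads is not known, so a missing promoter peak means that none was detectable at this depth, and does not show that the promoter was closed in every cell.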
